A study of Drosophila melanogaster with 2 samples.

Results

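The proteasome subunit genes of Drosophila melanogaster were taken here as the protein-coding genes whose symbol begins with Prosalpha or Prosbeta, or with Rpn or Rpt and a digit. The rule found 48 of the 13945 protein-coding genes annotated on the chromosome arms. Of these, 25 encode the core particle (12 alpha ring and 13 beta ring genes) and 23 the regulatory particle (14 Rpn and 9 Rpt genes). By name, 32 were principal genes, such as Prosbeta5, and 16 were duplicate forms, whose symbol carries R or T after the subunit number, such as Prosbeta5R2 or Prosalpha4T1. The measurement was ChIP-seq with an anti-GFP antibody against Gug fused to eGFP, in whole prepupae (age 1 day) of the strain Gug-GFP. There was a single group with 2 biological replicates, chromatin was sheared by sonication, and the sex of the animals was not recorded. The labels name a separate experiment as a possible control and describe the strain as an insertion that targets Gug. Because the animals were used whole, a peak is an average over all tissues, and binding in a small tissue cannot be told apart from weak binding in many.

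The proteasome degrades proteins tagged with ubiquitin. Its core particle is a barrel of stacked rings, in which outer alpha subunits form the gated entrance and inner beta subunits hold the proteolytic sites. The regulatory particle caps the barrel: its Rpt subunits form a ring of ATPases that unfolds substrates, and its Rpn subunits bind, deubiquitinate and position them. The duplicate forms marked T are known in Drosophila for expression in the testis. Gug, also called Atrophin, is a corepressor that reaches DNA through partner proteins.

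The deposited peaks carry a summit, the position of strongest enrichment, and the sequence around it shows where the signal lay. The strongest summits at 4 genes are shown with 75 bases on either side, read from the RefSeq copy of the dm6 assembly in the direction of the gene. Rpn3 and Rpn5 are shown because, among proteasome genes, only their strongest summits passed the threshold in each replicate's own list. Prosbeta2 is shown because its summit lay midway between a pair of divergent genes, and Rpn12 because a DNA motif lay on the summit. Capitals mark matches to a fixed set of 8 motifs, described further on.
Rpn3, chr2L:19051694-19051844, plus strand: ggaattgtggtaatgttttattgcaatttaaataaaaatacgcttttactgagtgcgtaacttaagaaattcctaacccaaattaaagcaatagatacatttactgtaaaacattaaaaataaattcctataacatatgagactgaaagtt
Rpn5, chr3R:5789119-5789269, plus strand: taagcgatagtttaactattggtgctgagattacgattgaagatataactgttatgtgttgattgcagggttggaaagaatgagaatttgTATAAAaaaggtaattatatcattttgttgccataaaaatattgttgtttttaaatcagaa
Prosbeta2, chr3L:14999737-14999887, plus strand: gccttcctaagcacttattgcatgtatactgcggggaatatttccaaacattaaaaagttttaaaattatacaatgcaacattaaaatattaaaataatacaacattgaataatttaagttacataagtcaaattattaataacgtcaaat
Rpn12, chr3L:16582743-16582893, plus strand: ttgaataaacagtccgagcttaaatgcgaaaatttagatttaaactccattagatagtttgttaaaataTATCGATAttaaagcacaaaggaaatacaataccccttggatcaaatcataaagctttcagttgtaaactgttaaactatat
These windows were rich in A and T, with a GC content of 25.8%, 27.8%, 23.8% and 27.8% in the order shown. In windows of 100 bases on either side, the median GC content was 31.3% over the 9 proteasome genes with a summit (23.9% to 53.2%) and 33.8% over all 2638 coding genes with one.

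Of the 48 proteasome genes, 9 had a summit of the thresholded list from both replicates within 1000 bp of a transcript start. That is 18.8% (95% exact binomial interval 8.95 to 32.6), beside 18.9% of all protein-coding genes (2638 of 13945). The share is that of coding genes in general and is no result about the proteasome. The genes were the core particle genes Prosalpha2, Prosalpha3, Prosbeta2 and Prosbeta5R2 and the regulatory particle genes Rpn3, Rpn5, Rpn6, Rpn11 and Rpn12. With 1 condition there were no groups of samples to test, so these comparisons are given as counts and shares without a p-value, and the intervals cover counting error only.

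The counts did not separate the core from the regulatory particle. Summits were found at 4 of 25 core genes (16%, 4.54 to 36.1) and at 5 of 23 regulatory genes (21.7%, 7.46 to 43.7), a difference of -5.74 percentage points with a 95% Newcombe interval from -28.1 to 16.5. The interval holds differences of either sign. Without the duplicate forms the counts were 3 of 14 core genes (21.4%) and 5 of 18 regulatory genes (27.8%). Within the core, 2 of 12 alpha ring genes and 2 of 13 beta ring genes had a summit. Within the regulatory particle, 5 of 14 Rpn genes had one (35.7%, 12.8 to 64.9) and 0 of 9 Rpt genes did, for which the exact interval reaches 33.6%. All 5 Rpn genes encode subunits of the lid, the part of the regulatory particle that carries the deubiquitinating activity. A lid group of 8 Rpn genes, named after the values were seen, had 5 with a summit (62.5%, 24.5 to 91.5). It leaves out the lid subunit gene Sem1, whose symbol is outside the rule and which had no thresholded summit within 1000 bp. The other 10 principal regulatory genes had 0 (up to 30.8%), beside 18.9% of all coding genes. Because the group was chosen with these values in view, the contrast is only a description and supports no property of the lid. The conservative list held 3 of these 8 lid genes and 0 of the other 10, beside 18.6% of coding genes. The list of replicate 1 held 2 and 0, beside 14.3%. That of replicate 2 held 2 and 1, the 1 being Rpt4, beside 14.9%. Counted for the nearest coding gene only, the numbers were 4 and 0, beside 14.1%. Among duplicate forms 1 of 16 had a summit (6.25%, 0.158 to 30.2), and among principal genes 8 of 32 did (25%, 11.5 to 43.4).

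**Figure D1:**
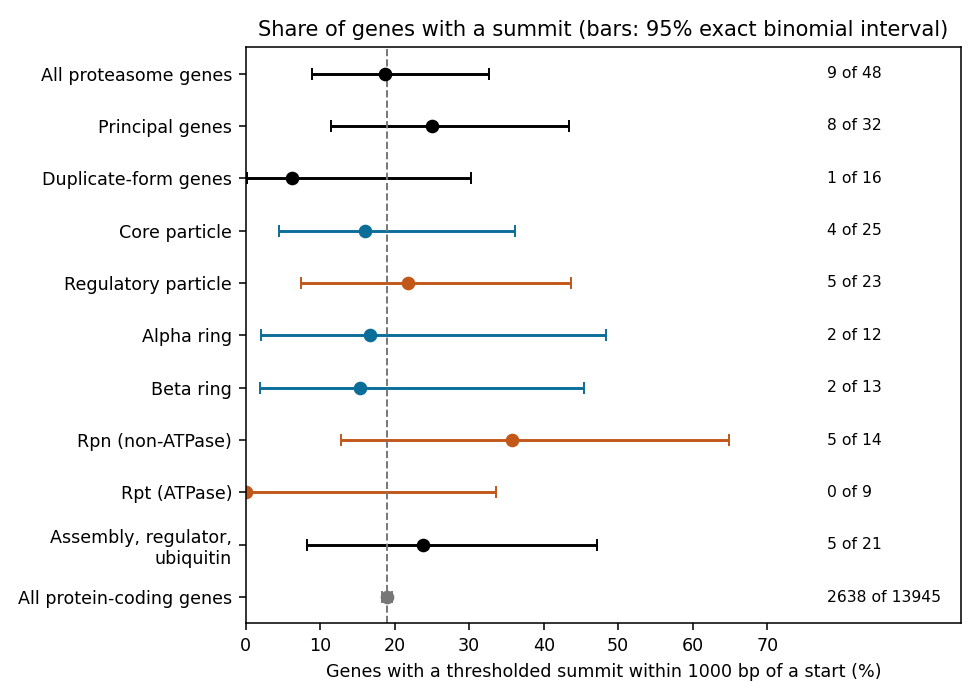
Share of genes with a thresholded summit within 1000 bp of a transcript start (x axis, percent) for each group of proteasome genes, for the assembly, regulator and ubiquitin genes, and for all protein-coding genes, with 95% exact binomial intervals and the counts at the right. The dashed line is the 18.9% of all coding genes, and the interval of every proteasome group drawn here includes it.

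The lid gene Rpn3 had the strongest summit of the set. Its signal, the authors' own value per peak with no stated unit, was 197 in the list from both replicates, 71.6 in that of replicate 1 and 126 in that of replicate 2. The summit lay 21 bp upstream of the nearest Rpn3 start (FBgn0261396, arm 2L, position 19051769), between Rpn3 and l(2)37Bb, a gene on the other strand whose start is 157 bp away. It ranked 1290 of 5750 in the list, and 67.0% of coding genes with a summit had a strongest signal at or below it. It was thresholded in each replicate's own list.

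Rpn5, another lid gene, was second, at 131 in the joint list, 55.5 for replicate 1 and 73.5 for replicate 2. It too was thresholded in both replicates. The summit (FBgn0028690, arm 3R, position 5789194) lay 299 bp upstream of the Rpn5 start but 120 bp from the start of Hat1, a histone acetyltransferase gene on the other strand, and within an intron of Hat1. A second, weak summit at 5789394, with a signal of 13.8, lay 99 bp from the Rpn5 start and 10 bp from that of Hat1, and no peak of either replicate's ranked list had a summit within 100 bp of it. Both summits are therefore nearer to Hat1 than to Rpn5.

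The other 7 genes had weaker summits, from 58.7 to 93.0. Prosalpha3, an alpha ring gene on arm 2R, had a signal of 93.0 (33.0 in replicate 1 and 60.2 in replicate 2), thresholded in replicate 2 alone, 88 bp upstream of its start. Prosbeta2, which encodes the subunit with trypsin-like activity, had 83.9 (40.4 in replicate 1 and 40.1 in replicate 2), thresholded in replicate 1 alone. Its summit (arm 3L, position 14999812) lay 139 bp from the Prosbeta2 start and 146 bp from that of mRpL39, a mitochondrial ribosomal protein gene on the other strand. These 2 genes were the only ones thresholded in just 1 of the replicates.

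The remaining 5 summits passed the threshold in neither replicate by itself. Rpn6, a lid gene on arm 2R, had a signal of 87.7 (41.9 in replicate 1 and 42.3 in replicate 2). The Rpn6 summit lay 104 bp upstream of one of its starts and within an intron of a longer Rpn6 transcript. It was 146 bp from a start of ave, a gene on the other strand. Prosalpha2, an alpha ring gene, had 87.2 (35.5 in replicate 1 and 47.1 in replicate 2), and its summit (arm 3R, position 12431060), 261 bp upstream, lay in a coding exon of CG5245 on the same strand. Rpn11, the deubiquitinase of the lid, had 67.6 (23.2 in replicate 1 and 44.7 in replicate 2), 199 bp upstream of its start (arm 2L, position 5059989). These 3 had peaks in both replicates' ranked lists, and in neither thresholded one.

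Rpn12, also of the lid, had the weakest strongest summit, 58.7 (36.2 in replicate 1 and 31.1 in replicate 2), 210 bp upstream of its start (arm 3L, position 16582818). Prosbeta5R2 was the only duplicate form with a summit. Its signal was 67.9, with 37.9 in replicate 1, and replicate 2 had no ranked peak within 100 bp. The summit (arm 2L, position 17990905) was the only one of the 9 downstream of a start, 487 bp into the gene and in a coding exon. Its irreproducible discovery rate (IDR), which measures how consistently a peak ranks between replicates or pseudoreplicates, was 0.00996. The highest in the authors' thresholded list was 0.00999. Duplicate forms can share sequence with their principal genes, and the treatment of reads that map to several places is not given in the sources used.

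**Figure D2:**
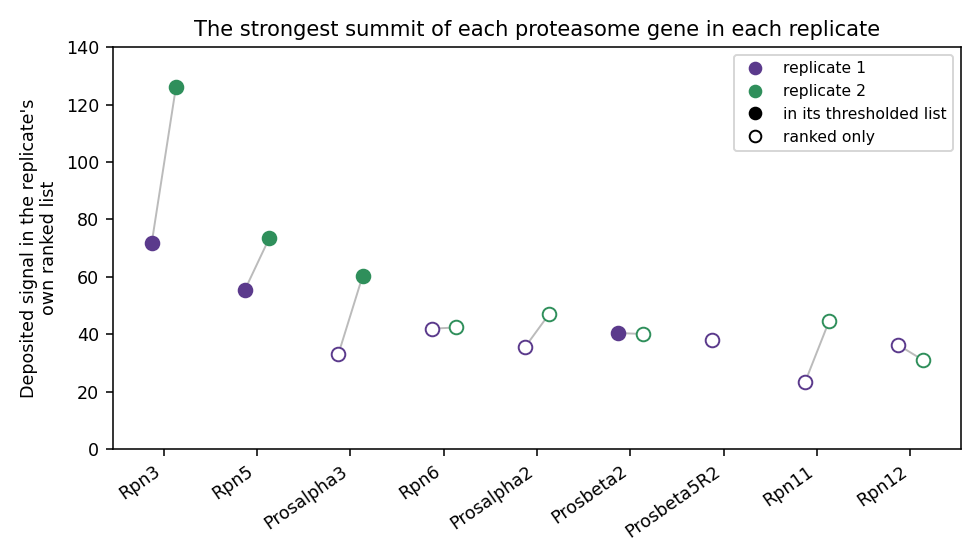
Deposited signal of the strongest summit at each of the 9 proteasome genes in replicate 1 (purple) and replicate 2 (green), taken from each replicate's own ranked list. Filled points passed that replicate's threshold: both did for Rpn3 and Rpn5, 1 did for Prosalpha3 and Prosbeta2, and neither did for the other 5 genes, where Prosbeta5R2 has no point in replicate 2.

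The 9 strongest summits at proteasome genes had a lower median signal than those near coding genes, and less support from single replicates. Over the 9 genes the median of the strongest signal was 87.2, beside 140 over the 2638 coding genes with a summit, and Rpn3 alone exceeded that second value. Of the 9 strongest summits, 5 were thresholded in neither replicate (55.6%), beside 275 of 1888 distinct strongest summits near coding genes (14.6%). In both replicates 2 of 9 were thresholded (22.2%), beside 1151 of 1888 (61.0%). Over all 5750 thresholded summits the median signal was 112, 22.7% were thresholded in neither replicate and 50.2% in both. Coding genes with a summit had a median length of 3797 bp, beside 1387 bp for the 9 proteasome genes. A single start was annotated for 53.7% of them, beside 77.8% of the 9. The part of gene length and number of starts in the signal was not tested, nor was that of the lower signal in the lower replicate support.

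Single-replicate lists and stricter lists held fewer proteasome genes. Those of single replicates are separate lists and not cuts of the joint one: that of replicate 2 held Rpt4, which the joint thresholded list did not. Replicate 1 alone gave 3 of 48 (6.25%), Prosbeta2, Rpn3 and Rpn5, beside 14.3% of coding genes. Replicate 2 alone gave 4 of 48 (8.33%), Prosalpha3, Rpn3, Rpn5 and Rpt4, beside 14.9%. The conservative list of both replicates gave 6 of 48 (12.5%), beside 18.6%, and left out Prosbeta5R2, Rpn11 and Rpn12. Peaks with an IDR of 0.001 or less were near Rpn3 and Rpn5 only, 2 of 48 (4.17%), beside 14.2%. None of the 1000 strongest peaks was near a proteasome gene, beside 5.11% of coding genes, and the exact upper limit for 0 of 48 is 7.40%. In the ranked list without a threshold, 33 of 48 proteasome genes had a summit within 1000 bp (68.8%), beside 67.6% of coding genes.

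**Figure D3:**
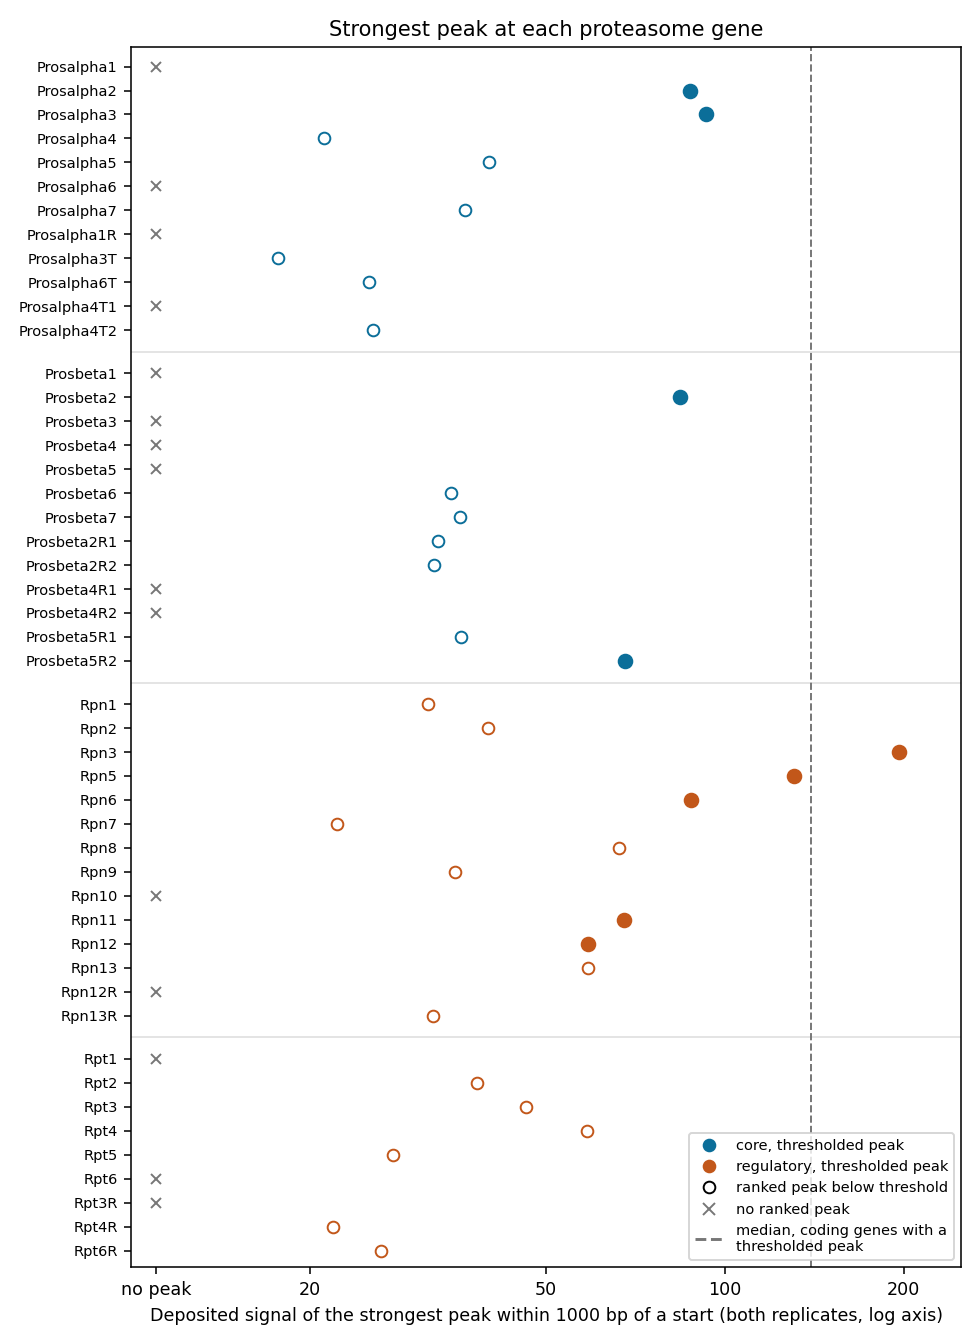
Deposited signal over both replicates of the strongest peak within 1000 bp of a transcript start of each of the 48 proteasome genes, on a log axis, ordered by alpha ring, beta ring, Rpn and Rpt with the duplicate forms last in each. Filled points are the 9 thresholded summits, open points ranked peaks below the threshold and crosses the 15 genes with no ranked peak, and the dashed line is the median of 140 over coding genes with a thresholded summit.

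The ring of ATPases had no thresholded summit over both replicates. Rpt4 came nearest, with a ranked peak of signal 58.5 at an IDR of 0.0216, 65 bp upstream of its start on X, and in the list of replicate 2 alone it was thresholded at 48.7. Rpt3 had 46.2 at an IDR of 0.0745, Rpt2 had 38.2 and Rpt5 had 27.6. Among the duplicate ATPase genes Rpt6R had 26.3 and Rpt4R 21.9. No ranked peak was found near Rpt1, Rpt6 or Rpt3R.

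Among Rpn genes below the threshold, Rpn13, a ubiquitin receptor, lay just outside it, with a signal of 58.9 at an IDR of 0.0103 and a position 14 bp upstream of a start. That signal was near the 58.7 of Rpn12, which lay inside at an IDR of 0.00549. Rpn8, the partner of Rpn11 in the lid, had 66.3 at an IDR of 0.0961. Rpn2, a scaffold subunit, had 39.9, Rpn9 35.2 and Rpn1 31.6, while Rpn7 had 22.2 and the duplicate form Rpn13R had 32.2. Rpn10, another ubiquitin receptor, and Rpn12R had no ranked peak. Of the 14 Rpn genes, 12 had a ranked peak (85.7%, 57.2 to 98.2), and 6 of 9 Rpt genes did (66.7%, 29.9 to 92.5). Each interval includes the 67.6% of all coding genes.

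In the core, most genes had a weak ranked peak or none, and so did coding genes in general. With thresholded ones counted, 15 of 25 core genes had a ranked peak (60%, 38.7 to 78.9), beside 67.6% of all coding genes. The median of the strongest ranked signal was 35.7, beside 42.6. In the alpha ring the ranked signals below the threshold were 40.1 at Prosalpha5, 36.6 at Prosalpha7, 25.5 at Prosalpha4T2, 25.1 at Prosalpha6T, 21.1 at Prosalpha4 and 17.7 at Prosalpha3T. Prosalpha1, Prosalpha6, Prosalpha1R and Prosalpha4T1 had none. In the beta ring they were 35.9 at Prosbeta5R1, 35.7 at Prosbeta7, 34.6 at Prosbeta6, 32.9 at Prosbeta2R1 and 32.4 at Prosbeta2R2. Prosbeta1, which carries the caspase-like activity, and Prosbeta5, which carries the chymotrypsin-like activity, had no ranked peak, nor had Prosbeta3, Prosbeta4, Prosbeta4R1 or Prosbeta4R2. Of the 3 catalytic beta subunits, Prosbeta2 alone thus had a peak.

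The nearest thresholded summit was usually several kilobases away. Over the 39 proteasome genes without one within 1000 bp, the median distance from a start was 9621 bp, beside 11050 bp over the 11307 other coding genes without one. Prosbeta6, at 1113 bp (signal 88.0), and Rpn2, at 1609 bp (98.9), were just beyond the limit. The farthest were the duplicate forms Prosbeta4R1 and Prosbeta4R2, at 78516 and 76168 bp, which are neighbours on arm 2L. Counting genes with and without a summit, the median was 14046 bp over the 16 duplicate forms and 3496 bp over the 32 principal genes. Over all coding genes it was 7783 bp.

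Where proteasome genes had a summit, it lay close to and upstream of the start. The strongest summit was upstream at 8 of 9 genes (88.9%), beside 2097 of 2638 coding genes (79.5%), and within 300 bp at 8 of 9 (88.9%), beside 64.9%. The median distance was 199 bp, beside 197 bp. All 8 principal genes had theirs from 21 to 299 bp upstream, and Prosbeta5R2 was the exception on both counts.

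**Figure D4:**
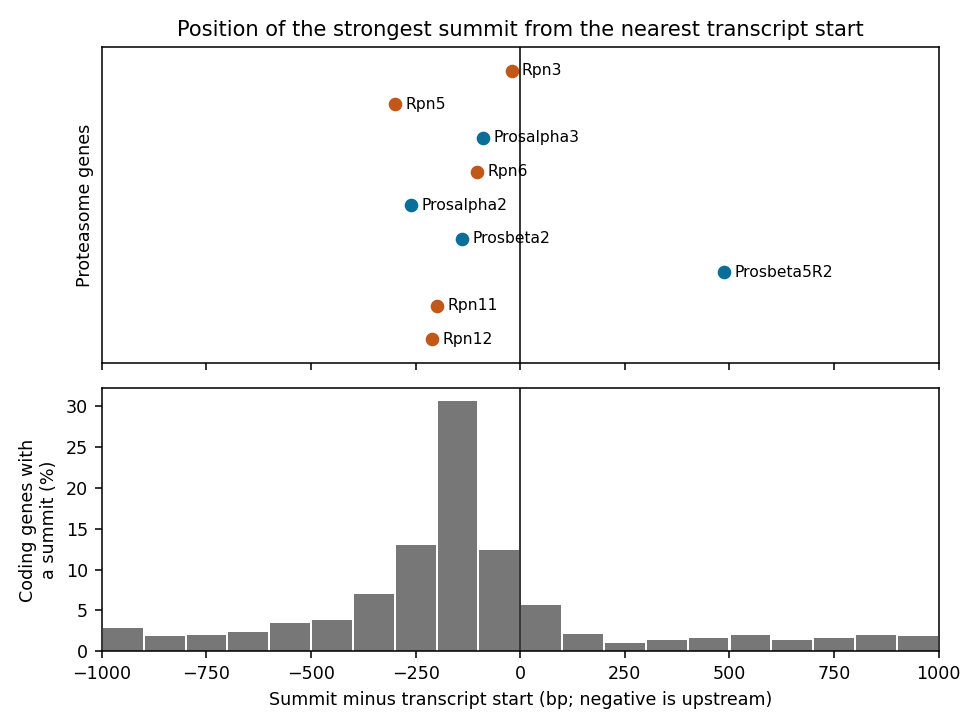
Position of the strongest thresholded summit from the nearest transcript start (x axis, bp, negative upstream) for the 9 proteasome genes, in order of falling signal (above; blue core, orange regulatory), and for all 2638 coding genes with a summit as percent per bin of 100 bp (below). All proteasome summits but that of Prosbeta5R2 fall from 299 to 21 bp upstream, where the distribution of coding genes also has its peak.

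Many proteasome genes start back to back with a neighbour. Such a neighbour was a coding gene on the other strand that began within 1000 bp upstream of the gene's outermost start. It was present at 19 of the 32 principal genes (59.4%) and 3 of the 16 duplicate forms (18.8%), beside 35.2% of all coding genes. Over all coding genes, 30.1% of those with such a neighbour had a summit and 12.8% of those without. Among proteasome genes 4 of 22 with such a neighbour (18.2%) and 5 of 26 without (19.2%) had a summit, a difference of -1.05 percentage points with a 95% Newcombe interval from -22.6 to 21.9. That interval includes the difference of 17.3 points over all coding genes. The 4 were Rpn3 with l(2)37Bb, Rpn5 with Hat1, Prosbeta2 with mRpL39, and Prosalpha3 with dgt3, a gene of the augmin complex. Rpn6 was not counted, as no start of ave lay within 1000 bp upstream of the outermost Rpn6 start. When a summit counted only for the coding gene with the nearest start, 8 of 48 proteasome genes had one (16.7%), beside 14.1% of coding genes, and Rpn5 was the gene lost.

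The promoters of proteasome genes were searched on both strands for 8 motifs, from 250 bases before to 50 after the outermost start. The DNA replication-related element TATCGATA, bound in Drosophila by DREF, was present in 12 of 32 principal promoters (37.5%, 21.1 to 56.3) and in 0 of 16 duplicate-form promoters (up to 20.6%), beside 9.36% of all coding promoters. By particle it was in 6 of 25 core promoters (24%) and 6 of 23 regulatory promoters (26.1%). The genes were Prosalpha3, Prosalpha5, Prosalpha6, Prosbeta1, Prosbeta2, Prosbeta6, Rpn3, Rpn7, Rpn9, Rpn12, Rpn13 and Rpt5. Of these 12 genes 4 had a summit (33.3%), and of the 36 others 5 did (13.9%), beside 23.2% and 18.5% of all coding genes with and without the element. All 12 are principal genes, and among the 20 principal genes without the element 4 had a summit (20%).

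At 2 genes the element lay on the summit of the joint list. In the Rpn12 sequence printed above it is the run in capitals, beginning 6 bases before the summit, and at Prosalpha3 it began 7 bases before it. The Rpn12 summits of replicates 1 and 2 lay 76 and 16 bp from the joint one, so its placement there is uncertain. Those of Prosalpha3 lay 4 and 2 bp away. Rpn12 was thresholded in neither replicate and was absent from the conservative list. Within 100 bases of the strongest summit the element was found at 2 of 9 proteasome genes, beside 3.98% of the 2638 coding genes with a summit. At Rpn3 and Prosbeta2 the element was in the promoter but not within 100 bases of the summit.

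The other motifs are given over all 48 genes, beside all coding promoters. The antioxidant response element TGACNNNGC, bound in Drosophila by the Cnc protein with Maf-S, was in 6 of 48 promoters (12.5%), beside 8.63%. They were those of Prosalpha2, Prosbeta3, Prosbeta4R2, Rpn1, Rpn7 and Rpt6. Motif 1, GGTCACACT, was in 5 of 48 (10.4%), beside 6.05%, all of them principal genes. Of the 32 principal promoters alone, 5 held the antioxidant response element and 5 held motif 1 (15.6% each, 5.28 to 32.8). At Prosbeta3 and Rpn1 a match to the first overlapped a match to the second. The TATA box TATAAA was in 18 of 48 (37.5%), beside 45.8%, the heat shock motif TTCNNGAA in 4 of 48 (8.33%), beside 7.69%, and GAGAGAG in 2 of 48 (4.17%), beside 5.87%. The E-box CACGTG and GGTGGCAAA, the proteasome element PACE known from yeast, were in 0 of 48, beside 4.20% and 0.480%. A match is a run of letters and not a measured binding site.

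**Figure D5:**
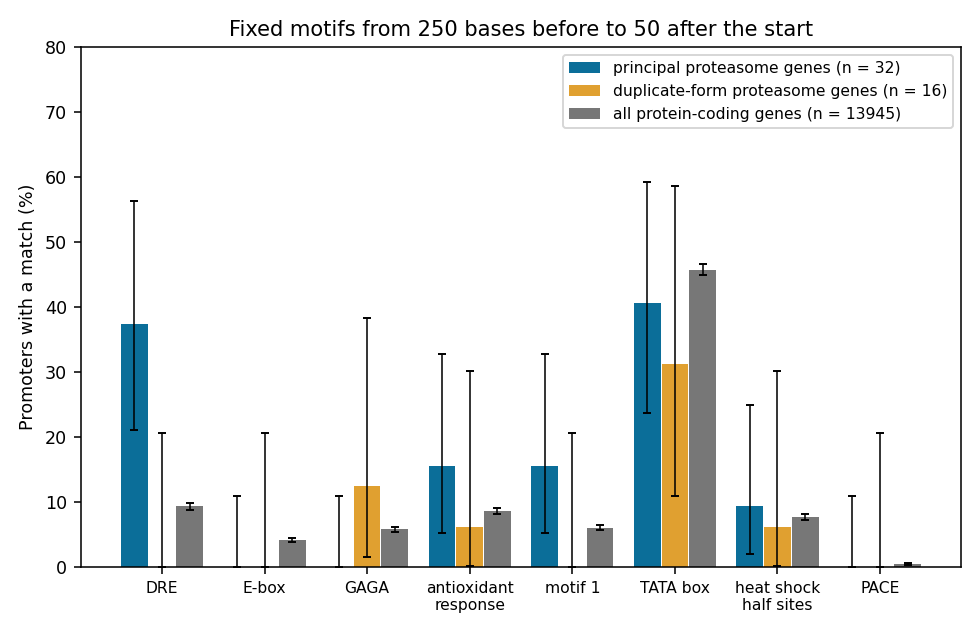
Share of promoters (y axis, percent) with a match to each of 8 motifs in principal proteasome genes (blue), duplicate-form proteasome genes (yellow) and all protein-coding genes (grey), with 95% exact binomial intervals. The DNA replication-related element (DRE) stands at 37.5% in principal genes, 0% in duplicate forms and 9.36% in all coding genes.

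Genes that assemble, regulate or feed the proteasome, together with the lid subunit gene Sem1, were taken as a further list of 21. Of these 5 had a summit within 1000 bp of a start (23.8%, 8.22 to 47.2), beside the 18.9% of all coding genes. Keap1, the cytoplasmic inhibitor of the stress response factor Cnc, had the strongest, at 415 in the joint list, 191 for replicate 1 and 233 for replicate 2. That summit lay 908 bp upstream of a Keap1 start but 609 bp from a start of kuk and in an intron of kuk. Another Keap1 summit, with a signal of 109, lay 173 bp upstream of that start but 126 bp from kuk. The last had 63.2, at 39 bp upstream of another Keap1 start.

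The gene cnc itself, which encodes a transcription factor known to activate proteasome genes, had a summit of 144 (48.1 in replicate 1 and 105 in replicate 2), thresholded in both, in an intron 324 bp downstream of one of its starts. Its other summits had 55.1 and 17.9. maf-S, which encodes the small Maf partner of Cnc, had 90.2 (51.4 in replicate 1 and 35.5 in replicate 2), at a position nearer to CG11110. When a summit counted only for the nearest coding gene, maf-S had none.

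Pomp, which encodes a chaperone of core particle assembly, had 84.6 (47.9 in replicate 1 and 45.7 in replicate 2), 234 bp upstream of its start, and a weaker summit of 23.6 at 3 bp. Npl4, a cofactor of the unfoldase TER94, had 87.4 (27.3 in replicate 1 and 57.0 in replicate 2). The other 16 genes of the list had no thresholded summit within 1000 bp: REG, PI31, ntc, Uch-L5, Usp14, Uch, rngo, Rad23, Ubqn, Uba1, Ubi-p63E, Ubi-p5E, TER94, Ufd1, Pngl and Sem1. Among them are the proteasome activator gene REG, the polyubiquitin genes and Uba1, the ubiquitin-activating enzyme gene.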

How the data were processed

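Peaks from ChIP-seq of Gug-eGFP in 2 replicates were used as deposited on dm6, per the labels and file headers. Per the README files deposited with them, each list was made from alignments and a further file, and thresholded lists from 1 more file. The README files do not describe these. The sources used here do not give the aligner, peak caller, IDR settings or read depth. The signal deposited by the authors is the caller's value per peak, and the −log10 of the IDR deposited by the authors served for the stricter threshold. The signal was used only to describe and rank peaks within a list.

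Summits (1-based) on X, 2L, 2R, 3L, 3R and 4 (5750, 3826 in replicate 1, 3999 in replicate 2) were compared with transcript starts of Ensembl release 115, which uses the same assembly. A gene had a summit when one lay within 1000 bp of any of its starts. The signal in a replicate is that of the nearest summit, within 100 bp, in its ranked list. Shares carry 95% exact Clopper-Pearson intervals. Sequences came from RefSeq. The members, gene list and motifs were chosen with earlier results of these data known. The rule for named genes was to give every member, and every listed regulator with a summit. Of the 21 listed genes, 20 matched by symbol and 1 by an older symbol. The counting step was tested on simulated data (Python 3.11.15, NumPy 2.4.6, SciPy 1.17.1). Alternatives were other peak lists, thresholds, distances, starts, assignments and motif windows.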

Additional observations from a re-analysis of the deposited data

How the results depend on the processing

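Shares and medians cannot change sign, so only the core minus regulatory difference could reverse. It was 0 among the 1000 strongest peaks and negative elsewhere. Shares are given in percent of genes. The proteasome share changed sides beside that of coding genes. It was higher within 500 bp (18.8 beside 15.8) and for the nearest coding gene only (16.7 beside 14.1). So it was for the outermost start (18.8 beside 16.8) and the ranked list (68.8 beside 67.6). It was lower elsewhere, such as in the conservative list (12.5 beside 18.6). With the list of a single replicate, the share was 6.25 to 8.33 over all proteasome genes, 4 in both lists for core genes, 9.38 to 12.5 for principal genes and 0 for duplicate forms, and the median strongest signal, on each list's own scale, was 55.5 to 66.8. At an IDR of 0.001 or less the share was 4.17 over all proteasome genes, 0 for core genes, 6.25 for principal genes and 0 for duplicate forms, and the median signal of the 2 genes left was 164. Among the 1000 strongest peaks it was 0 for proteasome, core, regulatory, principal and duplicate-form genes, so no median signal could be given, and 4.76 for the assembly, regulator and ubiquitin genes. The conservative list gave 0 for duplicate forms. The cause was not tested. Within 100 bases of the summit, a window chosen after seeing the data, the shares with GAGA, the antioxidant response element, motif 1 and the heat shock motif were 0. Of the alternative values 63 stayed within the limits set for them and 25 moved. Changing the distance to 500 or 2000 bp gave 9 (18.8%) or 11 (22.9%) proteasome genes, beside 15.8% or 24.4% of coding genes, the wider one adding Prosbeta6 and Rpn2. No paired analysis was possible because the study has a single group. The number of genes limits every share: intervals on 9 of 48 genes span 8.95 to 32.6%.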
